A study of Rattus norvegicus with 30 samples.

Results

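The transcriptomes of rat bone marrow mesenchymal stromal cells (BMSCs) after 72 h of osteogenesis (OS) and after 72 h of chondrogenesis (CH) were compared directly, with 3 samples in each group and 6 of the 30 samples of the series in all. The members were the samples whose titles mark osteogenic or chondrogenic differentiation medium and 3 days, written here as 72 h, and all genes were considered after rows sharing a gene name were summed. The cells came from the femurs and tibiae of young female Sprague Dawley rats, were used at an early passage in flat culture, and received a commercial osteogenic or chondrogenic differentiation medium. No transgene, deletion or further treatment is described for either group. Each sample was RNA pooled from several cultures, and the labels call the 3 samples of a group biological replicates. Where they share rats, p-values measure only the spread between these pooled samples. The series also holds undifferentiated cells at 0 h, the same media at 3 and 12 h, and adipogenic (AD) medium, which are used below only as reference levels or for the same contrast at earlier times. No culture kept 72 h without induction was analysed here, so the comparison gives differences between the media and not the change that either of them made.

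BMSCs can form bone, cartilage or fat. Osteoblasts, which deposit and mineralize a collagen I matrix, depend on the transcription factors (TFs) Runx2 and Sp7, and chondrocytes, which deposit collagen II, collagen IX and aggrecan, depend on Sox9 with Sox5 and Sox6. Osteogenic media usually rest on a glucocorticoid with ascorbate and a phosphate source, and chondrogenic media on a growth factor of the TGF-beta family. The composition of the media used here is not given in the sources used here. Tendon cells share part of the cartilage programme and are marked by the TF Scx, while PPAR-gamma directs fat formation.

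Values are CPM, reads of a gene scaled to the total reads of its sample, and fold changes are differences of log2(CPM + 1), OS minus CH, so that a positive value means higher in OS. A gene was called a differentially expressed gene (DEG) where its groups differed by 1 or more on this log2 scale, in either direction, with an adjusted p-value under 0.05 in limma, fitted over all 30 samples. The reads behind the values were recovered: 6409225 to 6702790 per OS sample and 3899609 to 4523111 per CH sample, the listed genes taking 56.5% to 59.5% of them in OS and 60.5% to 67.7% in CH. The CH samples were thus the shallower, with 3 reads worth 0.663 to 0.769 CPM against 0.448 to 0.468 CPM in OS. Several genes that every cell uses were listed at or near 0 in these files. Actb was at 0.442 to 1.56 CPM over the 6 samples, Ywhaz at 1.78 to 3.54 CPM, Vim at 0 to 1.28 CPM, and Ppia at 0 in all 6, whereas the ribosomal gene Rplp0 was at 3017 to 5819 CPM. These genes were picked after their values were seen. A gene listed near 0 is therefore not taken as absent, and a ratio against a group near 0 compares the reads as listed.

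Of the stromal markers, Thy1 (3788, 3638 and 3695 CPM in OS and 2579, 2317 and 2243 CPM in CH), Itgb1 and Cd44 were high in both groups, while Eng, Pdgfra, Pdgfrb and Vim were listed at or under 1.28 CPM. The label of osteogenic cells could not be checked with most of the defining osteoblast genes. Only Ibsp, bone sialoprotein, was listed well above 0, and it went against the label. It had 2.69, 4.06 and 1.66 CPM in OS and 318, 201 and 221 CPM in CH. Sp7 was listed at 0 in all 6 samples, Alpl at 0.149 to 0.312 CPM in OS and 0 in CH, Bglap at 0.448 to 0.904 CPM in OS and 0 in CH, Spp1 at 0 to 1.28 CPM, and Runx2 and Col1a1 were not analysed here. For chondrogenic cells the defining markers were split. Sox9 and Comp were high in CH, but Acan was listed at 0 in all 6 samples, Col2a1 at 0 to 0.769 CPM and Sox6 at 0 to 0.442 CPM, and Sox5 and Gdf5 were not analysed here. The samples are called OS and CH after their media.

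Of 4363 genes tested, 856 (19.6%) were DEGs, 373 (8.55%) higher in OS and 483 (11.1%) higher in CH. With listed genes set to the same sum the split was 444 and 427, so which side held more DEGs depended on the scaling. In 847 of the 856 all 3 samples of one group lay above all 3 of the other, which was the case for 52.2% of all genes tested. The larger differences lay on the CH side: 80 DEGs higher in CH and 25 higher in OS differed by 3 or more on the log2 scale, and 15 and 6 by 5 or more. Over all genes tested the median log2 fold change was 0.07. Samples of one medium correlated across genes at Pearson r 0.991 to 0.993 in OS and 0.989 to 0.990 in CH, against 0.933 to 0.939 between the media (genes are not independent replicates). In 212 of the DEGs higher in OS and 232 of those higher in CH the higher group had a mean under 10 CPM. Restricted to the 1810 genes with a mean of at least 10 CPM over the 30 samples, a filter chosen after seeing the data, 341 were DEGs, 145 higher in OS and 196 in CH.

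**Figure D1:**
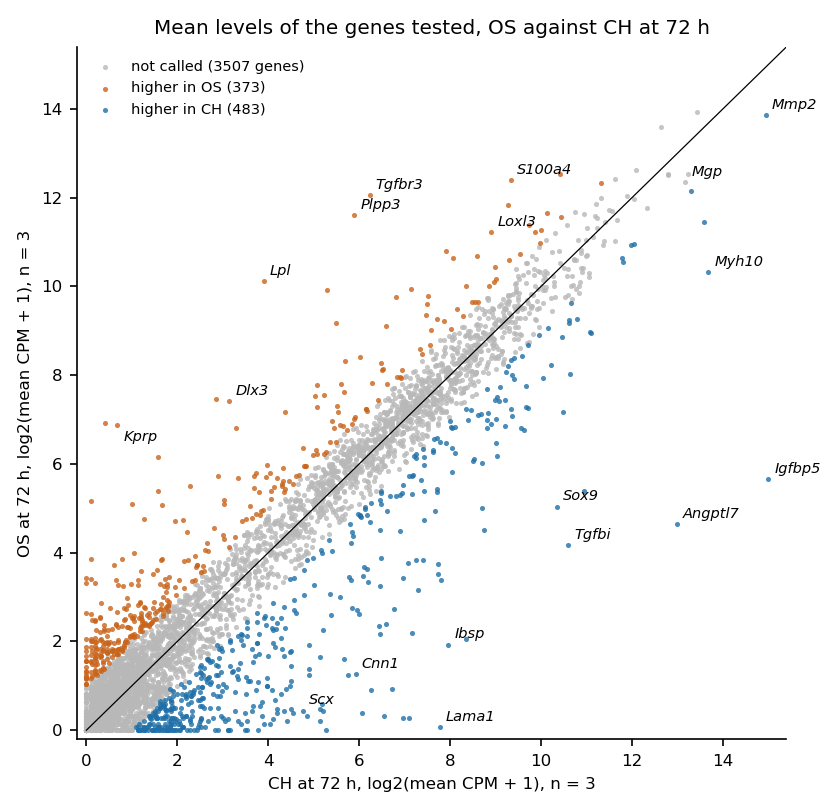
Mean level of each of the 4363 genes tested in OS (vertical) and CH (horizontal) at 72 h, as log2(mean CPM + 1) of 3 samples each. Orange points are the 373 DEGs higher in OS, blue points the 483 higher in CH, and the line marks equal levels. Igfbp5, Angptl7 and Lama1 lie farthest below it.

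To show the genes at both ends of the comparison by sequence as well as by level, the bases before the start of the gene are printed for 4 leading genes, those with the largest fold change in each direction (2 each) among the 16 of 24 that had an entry in the RefSeq promoter table (build GRCr8). The other 12 are not printed. Each run is 250 bases on the gene's own strand, 5′ to 3′, ending at the base before the annotated start, with capitals marking any match to TATAAA (the TATA box), TGTTCT (a glucocorticoid receptor half-site), AGGTCA (a nuclear receptor half-site), ACAAT (the core bound by Sox proteins) or CAGAC (a Smad box), in either orientation.
Kprp (higher in OS, chr2:181129829-181130078, minus strand): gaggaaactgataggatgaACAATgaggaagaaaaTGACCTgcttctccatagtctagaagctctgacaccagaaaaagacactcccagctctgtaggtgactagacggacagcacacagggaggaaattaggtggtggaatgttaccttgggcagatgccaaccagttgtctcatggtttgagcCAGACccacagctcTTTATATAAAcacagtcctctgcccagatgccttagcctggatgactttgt
Tgfbr3 (higher in OS, chr14:2634044-2634293, plus strand): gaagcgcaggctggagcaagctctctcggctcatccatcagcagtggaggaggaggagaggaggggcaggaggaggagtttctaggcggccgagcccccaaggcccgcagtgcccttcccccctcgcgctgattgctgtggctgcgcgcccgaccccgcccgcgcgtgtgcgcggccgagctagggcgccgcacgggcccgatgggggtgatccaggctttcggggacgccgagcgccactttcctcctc
Igfbp5 (higher in CH, chr9:81914188-81914437, minus strand): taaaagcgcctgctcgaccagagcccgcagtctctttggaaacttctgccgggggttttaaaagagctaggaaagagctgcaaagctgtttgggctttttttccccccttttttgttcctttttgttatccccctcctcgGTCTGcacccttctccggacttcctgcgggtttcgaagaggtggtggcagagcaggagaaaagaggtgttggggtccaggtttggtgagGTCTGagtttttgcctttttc
Lama1 (higher in CH, chr9:115139298-115139547, plus strand): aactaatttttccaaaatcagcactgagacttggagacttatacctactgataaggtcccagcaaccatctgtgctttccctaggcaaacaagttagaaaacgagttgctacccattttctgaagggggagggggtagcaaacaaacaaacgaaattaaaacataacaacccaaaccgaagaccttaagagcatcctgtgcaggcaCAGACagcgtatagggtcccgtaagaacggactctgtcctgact
Kprp held a TATA box match in both orientations, which overlap, beside 1 match each to the Sox core, the nuclear receptor half-site and the Smad box. Igfbp5 held 2 Smad box matches and Lama1 held 1, and Tgfbr3 had no match to any of the 5. Short letters recur by their nature: the Smad box stood in 42.8% of all 27457 promoters of this length, in 37.5% of 267 promoters of genes higher in OS, in 49.4% of 354 of genes higher in CH, and in 40.9% of 2585 of genes tested and not called. The glucocorticoid receptor half-site stood in 17.1% of all promoters, 10.5% for OS, 11.3% for CH and 10.9% for genes not called, and the Sox core in 29.6%, 16.9%, 17.2% and 18.5%. The TATA box stood in 13.1%, 8.99%, 8.19% and 7.20%, and the nuclear receptor half-site in 13.7%, 9.36%, 9.89% and 10.8%. These are counts of letters and no test was made of them.

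The genes with the largest differences higher in CH included secreted and matrix proteins, a grouping made after their values were seen. Igfbp5, a secreted binding protein of insulin-like growth factors, had 33332, 32936 and 31633 CPM in the CH samples and 44.2, 51.8 and 53.2 CPM in the OS samples. Its log2 fold change was -9.33 ± 0.74 (SE) with adjusted p = 8.22e-12, and by its mean of 32633 ± 889 CPM (SD, n = 3) it was the most abundant of the leading genes in CH. At 0 h it stood at 5.51 CPM and in AD medium at 72 h at 14952, 14956 and 380.5 CPM. AD replicate 3 stood apart here and across genes (Pearson r 0.971 and 0.972 with the other AD samples at 72 h, which had 0.989 between them), and AD replicate 1 at 12 h less so (0.984 against 0.991). AD levels are therefore given per sample, and without the AD samples, an alternative chosen after seeing the data, 856 genes were again called at 72 h. Angptl7, a secreted angiopoietin-like protein that is also a tendon gene, had 9685, 7289 and 7432 CPM in CH and 22.7, 27.0 and 22.8 CPM in OS (log2 fold change -8.33 ± 0.56, adjusted p = 2.39e-13), and 46.3, 31.0 and 1.74 CPM in AD medium. In both genes every CH sample lay far above every OS sample.

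Lama1, the alpha 1 chain of basement membrane laminin, had 222, 217 and 213 CPM in CH and was listed at 0, 0 and 0.151 CPM in OS, where 1 read was counted in all. Its ratio was 4289 with an interval of 769 to 169474 (95%, exact, counting error only) and its log2 fold change was -7.70 ± 0.31 (adjusted p = 1.34e-18). Tgfbi, a matrix protein named for its induction by TGF-beta, had 1616, 1559 and 1485 CPM in CH and 17.3, 17.6 and 16.3 CPM in OS (-6.43 ± 0.30, adjusted p = 6.13e-17). The OS level of Tgfbi was near the 14.8 CPM of 0 h, and the CH level lay far above it. Crispld2, another secreted protein, had 2188, 1945 and 1738 CPM in CH and 42.1, 38.1 and 43.2 CPM in OS (-5.53 ± 0.23, adjusted p = 2.39e-18), and Lrrc17, a secreted leucine-rich-repeat protein, had 348, 296 and 328 against 2.83, 2.81 and 3.77 CPM (-6.30 ± 0.27, adjusted p = 4.94e-18).

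The remaining leading genes of CH were a bone matrix gene and cell surface or signalling genes. Ibsp, bone sialoprotein, had 318, 201 and 221 CPM in CH and 2.69, 4.06 and 1.66 CPM in OS (-6.05 ± 0.28, adjusted p = 5.75e-17), a gene of the osteoblast list that was higher in the chondrogenic medium. The engulfment receptor Megf10 had a mean of 92.7 ± 5.01 CPM in CH and was listed at 0 to 0.468 CPM in OS (-6.24 ± 0.32). The glutamate transporter Slc1a1 had 104 ± 1.14 against 0.917 ± 0.418 CPM (-5.79 ± 0.36), and the serotonin receptor Htr2b 65.4 ± 5.25 against 0.302 ± 0.146 CPM (-5.67 ± 0.36). The kinase Dclk3 had 146, 116 and 106 CPM in CH and 0 to 0.452 CPM in OS (-6.69 ± 0.21), and the uncharacterised LOC102547056 had 137, 130.4 and 136 CPM against 0.149, 0.156 and 0.301 CPM (-6.82 ± 0.31). At 12 h Dclk3 had means of 0.404 CPM in OS and 0.511 CPM in CH, and LOC102547056 of 1.32 and 3.39 CPM, far below the CH level of 72 h. The adjusted p-values of these genes ran from 3.12e-21 (Dclk3) to 7.68e-14 (Htr2b).

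The genes with the largest differences higher in OS included enzymes and receptors, again a grouping by hindsight. Tgfbr3, betaglycan, a co-receptor that presents TGF-beta and inhibin, had 4240.2, 4081 and 4419.9 CPM in OS and 76.4, 66.5 and 79.2 CPM in CH (log2 fold change 5.83 ± 0.10, adjusted p = 8.87e-28, the smallest p among the leading genes described). From 863 CPM at 0 h its level lay higher in OS and lower in CH, and AD medium, at 5295, 5633 and 5349 CPM, lay on the OS side. Plpp3, a phosphatase that degrades lysophosphatidic acid, had 3071, 2998 and 3281 CPM in OS and 55.4, 62.3 and 57.8 CPM in CH (5.71 ± 0.12, adjusted p = 3.91e-26), and Lpl, lipoprotein lipase, had 1143, 1037 and 1140.1 against 13.6, 13.5 and 14.7 CPM (6.21 ± 0.32, adjusted p = 4.46e-16). Both were also high in AD medium, Plpp3 at 2615, 2654 and 1666 CPM and Lpl at 1160.4, 1387 and 3216 CPM, and both lay in CH below their 0 h means of 549.8 and 720.3 CPM.

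Aox1, aldehyde oxidase, had 992, 929 and 959 CPM in OS and 38.5, 34.7 and 40.9 CPM in CH (4.62 ± 0.20, adjusted p = 4.94e-18), and 4010.5, 4085 and 6352 CPM in AD medium. Akr1cl, an aldo-keto reductase, had 36.3, 31.8 and 36.8 CPM in OS and 1 read in all CH samples, a ratio of 452 with an interval of 80.9 to 17881 (5.07 ± 0.23). Hpse, heparanase, which cleaves heparan sulphate chains, had 176 ± 13.6 against 6.25 ± 1.58 CPM (4.63 ± 0.24, adjusted p = 4.71e-16). Kprp, keratinocyte proline-rich protein, differed from these in its course: its OS values of 117, 114 and 119 CPM and CH values of 0.256, 1.55 and 0 CPM (6.32 ± 0.65, adjusted p = 2.73e-09) both lay below its 783 CPM of 0 h. Genes of vasoactive systems and a junction gene completed the leading genes beside the TF Dlx3 described below: Ace, angiotensin-converting enzyme, with 70.8 ± 4.01 against 1.98 ± 0.693 CPM (4.62 ± 0.35), Ednra, the endothelin A receptor, with 33.4 ± 4.98 against 1.01 ± 0.557 CPM (4.13 ± 0.26), and Cldn1, a tight junction claudin, with 40.9 ± 7.05 against 1.99 ± 0.454 CPM (3.81 ± 0.50). Their adjusted p-values were 4.17e-12, 5.74e-14 and 2.53e-07.

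**Figure D2:**
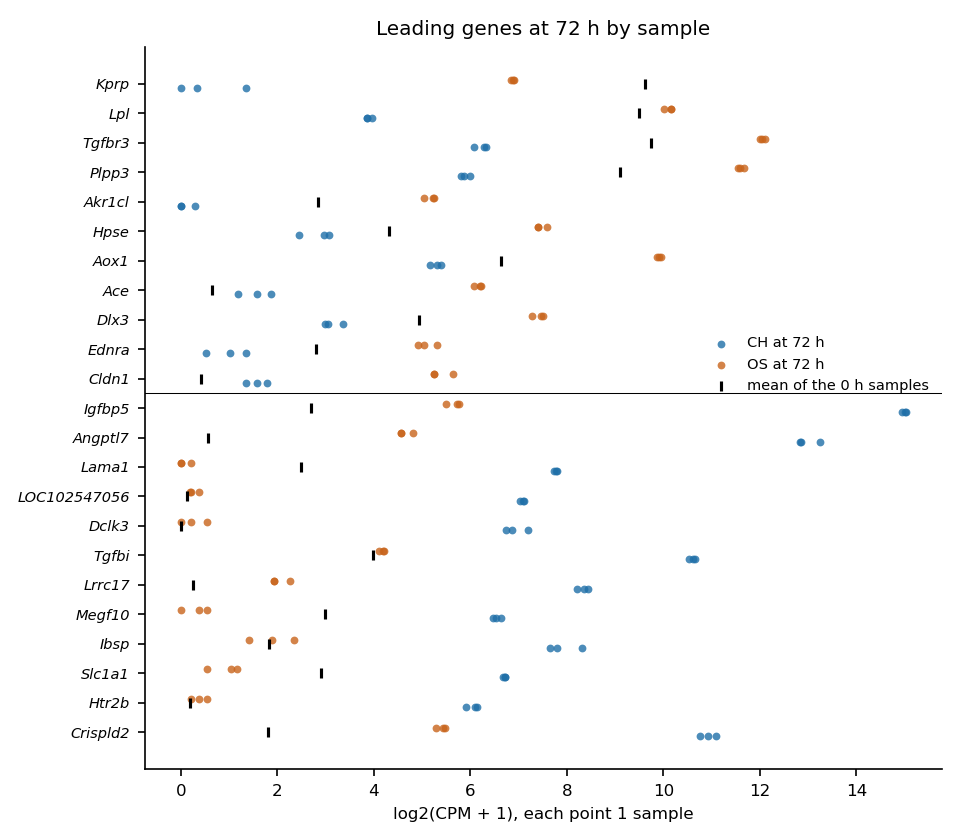
Each point is 1 sample at 72 h, as log2(CPM + 1), for 11 leading genes higher in OS (above the line) and 12 higher in CH (below it), and the black bar is the mean of the 0 h samples. The 3 orange OS points and the 3 blue CH points do not overlap in any of the 23 genes, which were chosen for that.

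Most of the cartilage genes tested were higher in CH. Of 40 genes in the chondrocyte list, 27 were listed and 8 passed the filter on low values. Of the 8, 6 were higher in CH (75.0%, against 11.1% of all genes tested) and none was higher in OS. The median log2 fold change was -3.16, against 0.07 over all genes tested. Comp and Itga10 had means of at most 0.539 and 0.453 CPM in every other group of the series, so they were tested through the CH samples at 72 h. The filter thus largely set their direction, and the share and the median include them. Sox9, the TF that directs cartilage formation, had 1489, 1256 and 1152 CPM in CH and 35.7, 29.6 and 30.1 CPM in OS (-5.30 ± 0.14, adjusted p = 1.02e-22). Comp, a pentameric protein that binds collagen fibrils, had 25.1, 20.3 and 19.3 CPM in CH and 0.746, 0 and 0.452 CPM in OS (-4.04 ± 0.23, adjusted p = 6.88e-15). Sox9 was thus abundant and Comp low in absolute terms, but in neither did the groups overlap, as in 52.2% of all genes tested. Col9a2, a chain of the collagen IX that decorates cartilage fibrils, had 46.4, 32.1 and 24.0 CPM against 0.597, 0.312 and 0.301 CPM (-4.60 ± 0.34), Matn4, a cartilage matrilin, had 11.4 ± 2.60 against 0.358 ± 0.242 CPM (-3.18 ± 0.28), and the collagen-binding integrin Itga10 had 11.6 ± 1.60 against 0.453 ± 0.397 CPM (-3.14 ± 0.23). Mgp, matrix Gla protein, an inhibitor of calcification made by cartilage and smooth muscle, was abundant in both, with 9212 ± 1605 CPM in CH and 5194 ± 339.7 CPM in OS, and its log2 fold change of -0.81 ± 0.23 (adjusted p = 0.00479) was too small for a call.

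Of the 5 tendon and ligament genes tested, 3 were higher in CH, none in OS and 2 were not called (60.0% called, against 19.6% of all genes). Scx, the TF of tendon progenitors, had 26.7, 24.3 and 27.6 CPM in CH and 0, 0.468 and 0.603 CPM in OS (-4.35 ± 0.33, adjusted p = 2.79e-12), Tnmd, tenomodulin, had 1.46 ± 0.474 CPM in CH and was listed at 0 in OS, which makes it at least 9.68-fold higher in CH against a floor of 3 reads over the group, and Angptl7 was given above. Tnmd had a mean of at most 0.474 CPM in every other group of the series, so it was tested through the CH samples at 72 h. The filter thus largely set its direction, and the 3 of 5 tendon genes include it. In the contractile list 6 of 21 were higher in CH and 2 in OS (38.1% called, against 19.6% of all genes), with a median of 0.07 equal to that of all genes (-0.04 under median-ratio scaling and -0.02 in edgeR). Myh10, nonmuscle myosin heavy chain IIB, had 15160.2, 12070.0 and 12082 CPM in CH and 1231, 1299 and 1286 CPM in OS (-3.36 ± 0.11, adjusted p = 6.94e-21), and Cnn1, calponin, had 59.6 ± 4.15 against 1.41 ± 0.326 CPM (-4.66 ± 0.17, adjusted p = 1.09e-19). At 0 h Myh10 stood at 7752 CPM and Cnn1 at 87.9 CPM, so that for Cnn1 both media lay below the starting level. Pdlim3, a Z-disc protein, was higher in CH at low counts (4.59 ± 0.895 against 0.104 ± 0.180 CPM, -2.34 ± 0.20), and Myocd, the coactivator of smooth muscle genes, was higher in OS (4.24 ± 1.25 against 0.563 ± 0.520 CPM, 1.78 ± 0.37), whereas its known targets Cnn1 and Tagln were higher in CH.

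Genes of the osteoblast and mineralization list were called in both directions. Of 35, 19 were listed and 10 tested; 3 were higher in OS, 4 higher in CH and 3 were not called (70.0% called, against 19.6% of all genes; median -0.62, against 0.07). Besides Ibsp, the genes higher in CH were Postn, periostin (48.0, 46.9 and 54.5 CPM in CH and 1.19, 2.65 and 2.26 CPM in OS, -4.09 ± 0.29, adjusted p = 6.52e-13), the cadherin Cdh11 (2155 against 500 CPM, -2.11) and the pyrophosphate transporter Ankh (1191 against 300 CPM, -1.99). The genes higher in OS were Smpd3, the neutral sphingomyelinase needed for bone mineralization, with 13.0, 15.9 and 11.6 CPM in OS and 1 read in all CH samples (a ratio of 174 with an interval of 31.0 to 6899, 3.75 ± 0.27), Bmp3, a BMP that opposes bone formation (4.52 ± 0.953 against 0.147 ± 0.255 CPM, 2.28 ± 0.27), and Tnfrsf11b, osteoprotegerin, the decoy receptor that restrains osteoclasts (52.4 ± 5.24 against 23.4 ± 0.379 CPM, 1.13 ± 0.19). The genes on the OS side are a mineralization enzyme and secreted regulators, whereas those on the CH side are matrix, adhesion and transport genes. Smpd3 had a mean of at most 0.599 CPM in every other group of the series, so it was tested through the OS samples at 72 h.

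Matrix genes were called in both directions in the lists given here, which were not compared by a test. Of 14 fibrillar collagens and their processing genes tested, 5 were higher in CH and 2 in OS (7 of 14 called, against 19.6% of all genes; median -0.81). Col24a1, a minor fibrillar collagen, had 28.6 ± 4.59 against 1.62 ± 0.215 CPM (-3.49 ± 0.27), Adamts14, a procollagen N-proteinase, 16.2 ± 2.63 against 2.91 ± 1.41 CPM (-2.18 ± 0.32) and Col5a1 7.91 ± 0.734 against 2.94 ± 0.375 CPM (-1.18 ± 0.24). On the OS side Loxl3, a lysyl oxidase that crosslinks collagen and elastin, had 2322, 2256 and 2569 CPM against 507, 472 and 459.8 CPM in CH (2.31 ± 0.19, adjusted p = 3.20e-11). The laminin chains split: Lama1 was higher in CH as above, whereas Lama5 had 945, 982 and 1008 CPM in OS and 133, 156 and 129.9 CPM in CH (2.81 ± 0.18, adjusted p = 1.00e-13). In that list of 13 genes tested 46.2% were called (against 19.6% of all genes), 4 higher in OS and 2 in CH. Among the latter was Col4a3 (4.67 ± 0.940 CPM in CH against 1.48 ± 0.954 CPM in OS, -1.25 ± 0.25). The call of Col4a3 was lost without OS replicate 3 (-0.97). Of 13 elastic and adhesive glycoproteins 61.5% were called (against 19.6% of all genes): 6 were higher in CH, among them Tgfbi, Postn, Emilin1 (-1.93 ± 0.24) and the fibrillin Fbn2 (-1.78 ± 0.27), and 2 were higher in OS.

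The proteoglycan list, which includes the enzymes that make glycosaminoglycans, had 17 genes tested, of which 5 were higher in CH and none in OS (29.4%, against 11.1% of all genes higher in CH; median -0.21). Chsy1, a chondroitin sulphate synthase, had 1082, 1060.1 and 1040.4 CPM in CH and 245, 233 and 257 CPM in OS (-2.11 ± 0.11, adjusted p = 7.66e-16). Has2, a hyaluronan synthase, had 274 ± 15.7 against 74.9 ± 2.68 CPM (-1.86 ± 0.27), the syndecan Sdc1 207 ± 12.8 against 42.2 ± 1.61 CPM (-2.27 ± 0.17) and the glypican Gpc3 41.2 ± 5.90 against 15.3 ± 2.87 CPM (-1.38 ± 0.26). With listed genes set to the same sum in each sample 3 members of this list were instead called higher in OS and 4 in CH, so the absence of OS calls depended on the scaling. Among matrix proteases 3 of 16 (18.8%, against 19.6% of all genes) were called, all higher in CH, and 1 with listed genes set to the same sum. Adamts4, an aggrecanase, had 433, 413 and 390.5 CPM in CH and 63.0, 55.9 and 73.8 CPM in OS (-2.67 ± 0.15, adjusted p = 4.53e-15). Mmp2, gelatinase A, was among the most abundant genes of both media (31357 ± 2170.4 CPM in CH and 14830.2 ± 576 CPM in OS, -1.08 ± 0.18) and Adam17, a sheddase, had 992 ± 28.9 against 479 ± 28.3 CPM (-1.05 ± 0.11), but neither call held with listed genes set to the same sum (-0.93 and -0.90), and that of Mmp2 was also lost under quantile normalization (-0.11, adjusted p = 0.576).

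Signalling genes were called in both directions. Of 15 TGF-beta, activin and BMP genes tested, 5 were higher in CH and 4 in OS (60.0% called, against 19.6% of all genes). The ligand Tgfb1 had 747, 617 and 605 CPM in CH and 135, 143 and 128 CPM in OS (-2.26 ± 0.14, adjusted p = 3.29e-14), while its co-receptor Tgfbr3 was the gene on the OS side with the largest difference of the list. The activin subunit Inhbb (1034 CPM in OS against 460 CPM in CH, 1.17) and the stress cytokine Gdf15 (4.61 against 1.74 CPM, 1.05) were higher in OS, and the BMP antagonist Nog (8.23 CPM in CH against 1.47 CPM in OS, -1.90), the pseudoreceptor Bambi (23.5 against 5.24 CPM, -2.04) and the ligand Gdf6 (4.86 against 0.459 CPM, -2.04) in CH. In the Wnt list 5 of 17 were higher in CH and 2 in OS (41.2% called, against 19.6% of all genes). The receptor Fzd4 had 590.2, 533 and 601 CPM in OS and 34.1, 52.6 and 44.7 CPM in CH (3.70 ± 0.16, adjusted p = 6.74e-18), and the secreted Wnt modulator Sfrp2 133, 122 and 117 CPM in CH and 9.70, 10.8 and 8.74 CPM in OS (-3.54 ± 0.75, adjusted p = 3.04e-04). In AD medium Sfrp2 was at 1702, 1696 and 36.7 CPM, above CH in 2 samples and below it in AD replicate 3. Wisp2, a Wnt-induced secreted protein, was higher in OS (5.34 ± 1.79 against 0.592 ± 0.559 CPM, 2.02 ± 0.30) and the R-spondin receptor Lgr5 in CH (7.90 ± 0.141 against 1.73 ± 0.275 CPM, -1.71 ± 0.55).

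In the IGF system Igfbp6 moved opposite to Igfbp5, with 1628, 1798 and 1874 CPM in OS and 289, 226 and 201 CPM in CH (2.90 ± 0.31, adjusted p = 4.43e-09). Of the 8 genes tested 2 were higher in each medium (4 of 8 called, against 19.6% of all genes), the others being Pappa2, a protease of IGF-binding proteins (1.67 ± 0.32), in OS and the adaptor Grb14 (-1.25 ± 0.44) in CH. The call of Grb14 (adjusted p = 0.0237) was lost in 4 of the 6 fits that left out 1 sample (OS replicates 1 and 2, CH replicates 1 and 3; adjusted p 0.0509 to 0.0756). Of 13 genes of the FGF, EGF, PDGF and VEGF systems 5 were called (38.5%, against 19.6% of all genes). Of these 3 were higher in OS, Spry2 (2.20 ± 0.33) and Spred2 (1.35 ± 0.35), which restrain receptor tyrosine kinase signalling, and the ligand Pdgfc (2.02 ± 0.30). Higher in CH were Pdgfrl, a PDGF receptor-like protein (1593, 1372 and 1295 CPM in CH and 117, 154 and 160.2 CPM in OS, -3.30 ± 0.30), and the ligand Fgf1 (1.74 against 0.102 CPM). Spred2 was not called without CH replicate 3 (0.99, adjusted p = 0.0357). In the Hedgehog list 1 of 4 was called, near the share of all genes, Gli1, the pathway's own target, which was higher in CH at 0.769, 3.10 and 3.78 CPM against 0, 0 and 0.452 CPM (-1.53 ± 0.32). Of 7 glucocorticoid-responsive genes 3 were called (42.9%, against 19.6% of all genes). Maoa, a monoamine oxidase (226 ± 8.19 against 77.2 ± 5.57 CPM, 1.54 ± 0.14), and the metallothionein Mt2A (2487 ± 26.3 against 1025 ± 176 CPM, 1.29 ± 0.13) were higher in OS, and Orm1, an acute-phase protein, was higher in CH (262 ± 43.3 against 55.6 ± 9.04 CPM, -2.21 ± 0.19). Tsc22d3, a classical glucocorticoid target, had 716 ± 102 CPM in OS and 492 ± 77.1 CPM in CH, with a log2 fold change of 0.54 ± 0.15 (adjusted p = 0.00523) that was too small for a call.

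**Figure D3:**
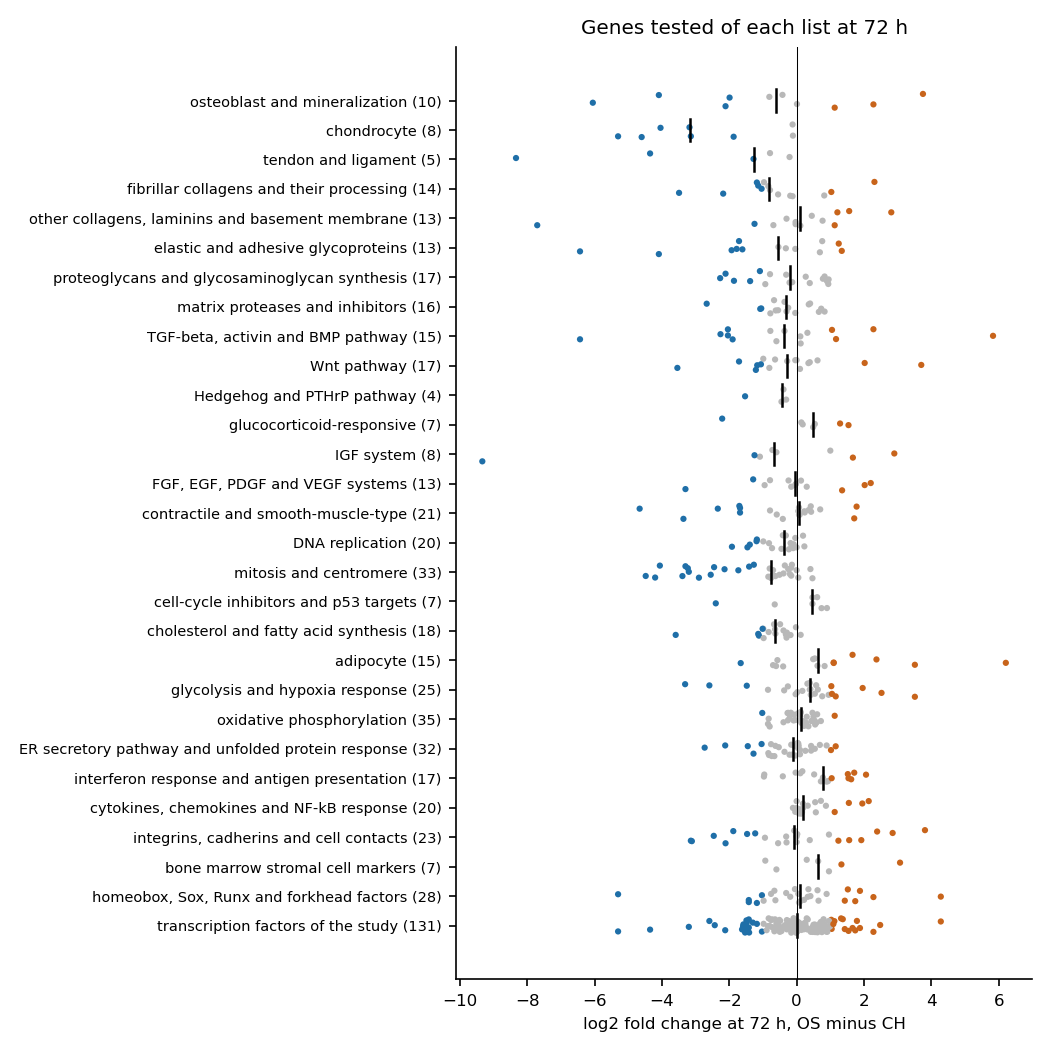
Log2 fold change at 72 h (OS minus CH) of each gene tested in 29 gene lists, with the number tested in parentheses and the median as a black bar. Orange and blue points are DEGs higher in OS and in CH, grey points were not called. The chondrocyte list has the lowest median (-3.16), and the interferon list the highest (0.78).

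Some lipid storage genes were higher in OS, and sterol synthesis genes were called about as often as all genes. Of 15 adipocyte genes tested, 6 were higher in OS and 1 in CH (46.7% called, against 19.6% of all genes; median 0.62), and in edgeR 5 and 3 (median 1.48). Besides Lpl, Dgat2, which completes triglyceride synthesis, had 121, 109 and 102 CPM in OS and 8.72, 9.95 and 7.78 CPM in CH (3.51 ± 0.19, adjusted p = 1.04e-15), and 75.0, 94.9 and 78.6 CPM in AD medium. Pparg, the TF of fat formation, was listed at 2.24, 2.50 and 1.81 CPM in OS and at 0 in CH, at least 9.38-fold higher against the floor of 3 reads (1.66 ± 0.20, adjusted p = 6.28e-08), and under 1 CPM in each AD sample. The OS values of Pparg rest on 15, 16 and 12 reads, and the adipocyte markers Cebpa and Plin1 were listed under 2 CPM in all 6 samples. Pparg had a mean of at most 0.514 CPM in every other group of the series, so it was tested through the OS samples at 72 h. The adipokine Cfd was higher in OS (4.61 ± 0.478 against 0.0855 ± 0.148 CPM, 2.37 ± 0.32) and the fatty acid binding protein Fabp5 in CH (119, 92.2 and 79.6 CPM in CH and 30.4, 30.4 and 27.6 CPM in OS, -1.66 ± 0.16). Of 18 cholesterol and fatty acid synthesis genes, 4 were higher in CH and none in OS (22.2% called, against 19.6% of all genes; median -0.64). Among them were the desaturase Scd2 (10387, 10023 and 9597 CPM in CH and 4550.2, 4357 and 4662 CPM in OS, -1.14 ± 0.12, adjusted p = 5.98e-09), squalene synthase Fdft1 (-1.12 ± 0.10) and Cyp51, a sterol demethylase (-1.01 ± 0.14). The count depended on the scaling, with 6 called under median-ratio scaling, 2 under quantile normalization and 1 with listed genes set to the same sum. Scd2, Fdft1 and Cyp51 all lost the call under both of the last 2 (Scd2 at -0.59 under quantile normalization, Fdft1 and Cyp51 just under the fold limit), and Cyp51 also without OS replicate 2 (-0.98) and without CH replicate 1 (-0.93).

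Some cell-cycle genes were higher in CH. Of 33 mitosis and centromere genes tested, 14 were higher in CH and none in OS (median -0.76), and of 20 DNA replication genes 5 were higher in CH and none in OS (median -0.36), against 11.1% of all genes tested. In edgeR 20 mitosis genes (median -2.80) and 6 replication genes (median -0.83) were higher in CH. Birc5, survivin, a component of the chromosomal passenger complex, had 64.6, 48.9 and 44.5 CPM in CH and 1.34, 1.40 and 1.36 CPM in OS (-4.48 ± 0.19, adjusted p = 4.32e-18). The mitotic kinesin Kif20a had 239, 195 and 201 CPM in CH and 11.6, 9.99 and 9.94 CPM in OS (-4.20 ± 0.20), the kinetochore gene Nuf2 115, 104 and 103 against 4.92, 4.37 and 7.53 CPM (-4.06 ± 0.21) and the kinesin Kifc1 63.2 ± 10.4 against 5.12 ± 1.01 CPM (-3.39 ± 0.22). None of these 4 overlapped between groups, which was also the case for 52.2% of all genes tested. In AD medium at 72 h Birc5 stood at 0.317 to 0.712 CPM, Kif20a at 1.43 to 4.97 CPM, Nuf2 at 1.11 to 2.67 CPM and Kifc1 at 1.77 to 3.33 CPM, each below every sample of both other media. Among replication genes Mcm3, of the replicative helicase, had 56.9 ± 8.91 against 19.9 ± 2.59 CPM (-1.46 ± 0.16), and Cdt1 (-1.39 ± 0.18), Gins1 (-1.92 ± 0.26) and Rpa3 (-1.19 ± 0.20) were called in the same direction, the last not without OS replicate 1 (adjusted p = 4.06e-04, with the fold change just under the limit). Of 7 cell-cycle inhibitors and p53 targets only Gadd45b was called (14.3%, against 19.6% of all genes), higher in CH (366 ± 20.9 against 68.2 ± 2.03 CPM, -2.40 ± 0.12).

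Of 25 glycolysis and hypoxia response genes, 6 were higher in OS and 3 in CH (36.0% called, against 19.6% of all genes), and 4 and 3 under median-ratio scaling. Egln3, the oxygen sensor prolyl hydroxylase, had 26.4, 26.1 and 25.9 CPM in OS and 2.05, 1.33 and 0.889 CPM in CH (3.51 ± 0.23, adjusted p = 1.10e-13) and Ndrg1 549.8 ± 26.2 against 94.9 ± 3.11 CPM (2.52 ± 0.28), while carbonic anhydrase Car9 (10.5 ± 1.80 against 0.150 ± 0.151 CPM, -3.31 ± 0.29) was higher in CH, so hypoxia targets stood on both sides. Epas1, which encodes HIF-2 alpha, had 2135 ± 195 CPM in CH and 1181 ± 47.6 CPM in OS (-0.85 ± 0.15, not called, but called under quantile normalization at -1.06 with adjusted p = 4.19e-10). Of 35 oxidative phosphorylation genes 2 were called (5.71%, against 19.6% of all genes), Ndufs4 in OS (1.13 ± 0.13) and Ndufb4 in CH (-1.02 ± 0.17); the latter was lost without OS replicate 1 (-0.93), without CH replicate 1 (-0.82) and with listed genes set to the same sum (-0.88). Of 32 genes of the secretory pathway and unfolded protein response, 5 were higher in CH and 2 in OS (21.9% called, near the 19.6% of all genes). Atf4, the TF of the integrated stress response, had 1705, 1536 and 1487 CPM in CH and 643, 535 and 553 CPM in OS (-1.45 ± 0.13, adjusted p = 2.03e-10) and its target Chac1 202 ± 1.80 against 29.6 ± 0.404 CPM (-2.73 ± 0.18, adjusted p = 1.19e-13), whereas the chaperone Hspa5 was higher in OS (5140 against 2534 CPM, 1.02). Creb3l1, which controls collagen secretion, had 2179 ± 468 CPM in CH and 493 ± 32.6 CPM in OS (-2.12 ± 0.18), and Sec61b, of the translocon, 196 ± 55.1 against 78.4 ± 6.49 CPM (-1.28 ± 0.17).

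Of 17 interferon response and antigen presentation genes, 6 were higher in OS and none in CH (35.3% called, against 19.6% of all genes; median 0.78), though under median-ratio scaling 2 were called higher in CH beside the 6. Ifi27 had 52.3 ± 5.23 against 11.8 ± 0.830 CPM (2.06 ± 0.21, adjusted p = 1.78e-09), Parp14 279 ± 16.7 against 90.4 ± 5.15 CPM (1.62 ± 0.11), the guanylate-binding protein Gbp2 6.11 ± 1.18 against 1.19 ± 0.524 CPM (1.71 ± 0.31) and the TF Irf5 8.85 ± 0.774 against 2.40 ± 0.241 CPM (1.54 ± 0.29). In CH the means of all 4 lay at or below those of 0 h, which for Parp14, Gbp2 and Irf5 were 225, 1.21 and 6.09 CPM. Of 20 cytokine and NF-kB genes 4 were called, a share near the 19.6% of all genes, all higher in OS: the neutrophil chemokine Cxcl1 (603, 592 and 639.9 CPM in OS and 209, 231 and 188 CPM in CH, 1.55 ± 0.13, adjusted p = 2.79e-11), the IL-33 receptor Il1rl1 (2.14 ± 0.36), Cxcl6 (1.95 ± 0.67) and Tnfrsf11b. The call of Cxcl6 was lost without OS replicate 2, CH replicate 1 or CH replicate 2 (adjusted p 0.0532 to 0.0607), and Cxcl1 and Il1rl1 lay in both media below their 0 h means of 3230.0 and 931 CPM. Of 23 integrins, cadherins and contact genes, 6 were higher in OS and 7 in CH (56.5% called, against 19.6% of all genes). Cldn15 (52.4 ± 0.0829 against 6.49 ± 1.43 CPM, 2.85 ± 0.48) joined Cldn1 on the OS side and the connexin Gjb2 (10.2 ± 1.87 against 0.305 ± 0.265 CPM, -3.11 ± 0.26) joined Itga10 on the CH side.

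Markers of other cell types were mostly low, apart from neural ones. Of 9 listed blood cell markers 3 were tested and none was called, with a summed level of 1.34 to 2.50 CPM in OS and 0.889 to 2.31 CPM in CH, and Csf1r and Adgre1 were at 0 in all 6 samples. Of 8 endothelial markers the summed level was 5.62 to 7.08 CPM in OS and 2.65 to 3.34 CPM in CH, most of it in OS from Tek (1.51 ± 0.38, called higher in OS, but not with a pseudocount of 0.1 CPM, adjusted p = 0.0553), with Kdr at 0 to 0.156 CPM. The only erythroid marker tested was not called (summed level 0.149 to 0.753 CPM in OS and 0.222 to 0.884 CPM in CH). Of 9 skeletal muscle markers both that were tested were higher in CH, Acta1 (-1.40 ± 0.26) and Tnnc1 (-1.18 ± 0.30), with a summed level of 4.36 to 6.41 CPM against 0.895 to 1.36 CPM. Of 11 neural markers 2 of the 3 tested were higher in CH, Tubb3 (118 ± 7.27 against 21.6 ± 1.83 CPM, -2.39 ± 0.18) and Uchl1 (-1.57 ± 0.25), with a summed level of 139 to 156 CPM against 42.4 to 49.7 CPM. Of 7 stromal markers tested, S100a4 (5136, 5644 and 5429 CPM in OS and 731, 602 and 603 CPM in CH, 3.07 ± 0.22, adjusted p = 7.28e-13) and Ngfr (at least 7.20-fold, listed at 0 in CH; not called without OS replicate 2) were higher in OS and none in CH (28.6% called, against 19.6% of all genes), although 1 was called higher in CH under median-ratio scaling and in edgeR. The part of these cells in the differences above was not tested, and fewer cells of a type and less RNA per cell cannot be told apart in such bulk samples.

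Of the 142 TFs tabulated by the study, which chose them on these samples and so gives no independent evidence of a direction, 131 passed the filter and 36 (27.5%, against 19.6% of all genes) differed between OS and CH at 72 h, 15 higher in OS and 21 in CH (20 and 20 with listed genes set to the same sum), with a median of 0.02 (-0.03 under median-ratio scaling and -0.06 in edgeR). Dlx3, a distal-less homeobox TF of bone and skin, led the OS side with 155, 180.4 and 175 CPM in OS and 6.92, 7.30 and 9.34 CPM in CH (4.28 ± 0.30, adjusted p = 4.42e-13). Nfia (8.49 ± 1.24 against 0.750 ± 0.540 CPM, 2.48 ± 0.27), the homeobox genes Gsc (21.0 ± 1.73 against 3.61 ± 1.09 CPM, 2.28 ± 0.27) and Meox2 (616, 679.6 and 668 CPM in OS and 188, 176 and 166 CPM in CH, 1.88 ± 0.19), and the clock repressor Nr1d1 (3.79 ± 0.525 against 0.381 ± 0.108 CPM, 1.79 ± 0.30) followed. On the CH side Sox9 and Scx led, followed by the histone variant Cenpa (16.0 ± 0.518 against 0.860 ± 0.169 CPM, -3.20 ± 0.23), the repressor Bhlhe41 (90.0, 53.9 and 57.6 CPM in CH and 8.80, 11.7 and 9.79 CPM in OS, -2.59 ± 0.28) and Rab24 (8.59 ± 2.69 against 0.814 ± 0.613 CPM, -2.43 ± 0.26). Cenpa, a centromere protein, and Rab24, a small GTPase, are in the list as the study gave it and are not sequence-specific TFs. By abundance only Dlx3 and Meox2 on the OS side and Sox9 on the CH side passed 100 CPM among these 10.

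Other TFs of interest were low or little changed. The homeodomain protein Hopx was higher in OS (3.43, 4.37 and 4.22 CPM in OS and 0.769, 0.884 and 0.889 CPM in CH, 1.43 ± 0.31, adjusted p = 3.27e-04), and Runx3, a Runx factor of cartilage maturation, in CH (1.03, 4.42 and 3.11 CPM in CH and 0, 0.156 and 1.05 CPM in OS, -1.42 ± 0.32, adjusted p = 5.33e-04; the highest OS sample lay just above the lowest CH sample, so the groups overlapped). Gbx2 was listed at 0 in OS and at 2.31, 0.221 and 1.11 CPM in CH (-1.03 ± 0.31, adjusted p = 0.00847), a call that rested on CH replicate 1, without which the log2 fold change was -0.68 (adjusted p = 0.102), and it was also lost in the fit of the compared samples alone (adjusted p = 0.0510) and with listed genes set to the same sum (-0.98). Snai2, which represses E-cadherin, was at 170.2, 171 and 178 CPM in OS and 99.0, 74.7 and 78.5 CPM in CH (1.04 ± 0.28, adjusted p = 0.00330), close to the fold limit and below it without CH replicate 2 (0.97) and in edgeR (0.97) and under median-ratio scaling (0.92). Sox11 (-0.98 ± 0.31, adjusted p = 0.0109) and Msx2 (0.65 ± 0.23, adjusted p = 0.0232) were not called, Sox11 just under the fold limit and past it without OS replicate 1, OS replicate 3 or CH replicate 3 (-1.01, -1.16 and -1.22), with a pseudocount of 0.1 CPM (-1.53), under median-ratio scaling (-1.08) and in edgeR (-1.61). Dlx5 was listed at 0 to 0.452 CPM in OS and 0.667 to 1.55 CPM in CH and was not tested. Of 28 homeobox, Sox, Runx and forkhead genes tested 6 were higher in OS and 5 in CH (39.3% called, against 19.6% of all genes; for CH 4 with listed genes set to the same sum, 8 in edgeR).

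**Figure D4:**
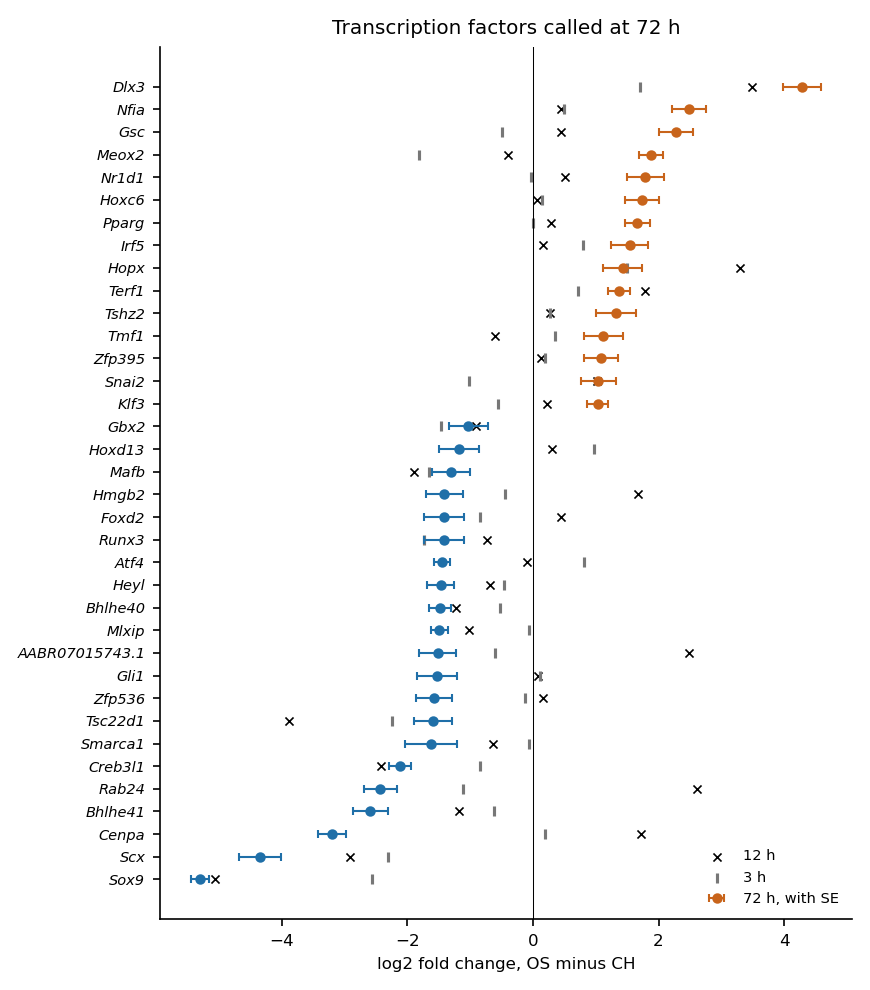
Log2 fold change (OS minus CH) of the 36 TFs of the study called at 72 h, as circles with the SE (orange higher in OS, blue higher in CH), with the same contrast at 12 h as crosses and at 3 h as grey bars. Sox9, Scx and Dlx3 are far from 0 on the same side at all times, and Cenpa and Rab24 cross from the OS side at 12 h to the CH side at 72 h.

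The same contrast at earlier times used other samples. OS replicate 3 at 3 h stood somewhat apart (Pearson r 0.983 and 0.982 with the other OS samples at 3 h, which had 0.992 between them). OS and CH differed in 319 genes (7.31% of those tested) at 3 h, 98 higher in OS and 221 in CH, and in 696 (16.0%) at 12 h, 387 (8.87%) higher in OS and 309 (7.08%) in CH, a balance that turned in edgeR (381 and 525) and with listed genes set to the same sum (327 and 345). Among the 72 h DEGs, 217 had a call in the same direction at 12 h, 25.4% of the 72 h DEGs and 31.2% of the 12 h DEGs, and 77 were called in the opposite direction, 62 of which were higher in CH at 72 h and in OS at 12 h. With the 3 h DEGs 101 were shared in direction, 11.8% of those at 72 h and 31.7% of those at 3 h. 66 genes were called at all 3 times in one direction, 17 higher in OS and 49 in CH. Among the latter were Sox9 (log2 fold change -2.57 at 3 h, -5.07 at 12 h and -5.30 at 72 h), Scx (-2.31, -2.91 and -4.35), Igfbp5 (-2.45, -5.48 and -9.33), Angptl7 (-5.17, -6.24 and -8.33) and Tgfbi (-1.48, -3.40 and -6.43), and among the former Dlx3 (1.70, 3.49 and 4.28), Fzd4 (2.03, 2.08 and 3.70), Egln3 (1.91, 6.32 and 3.51) and Spry2 (2.38, 3.22 and 2.20). 515 of the DEGs at 72 h were called at neither earlier time.

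A test of the change in the difference itself, 72 h against 12 h, called 981 genes (22.5%), among them 526 of the 856 DEGs at 72 h (61.4%). 418 (9.58%) moved towards OS and 563 (12.9%) towards CH, but with listed genes set to the same sum 608 moved towards OS and 450 towards CH, so the balance depended on the scaling. The largest shifts towards CH were in histone and mitosis genes and 1 uncharacterised gene. LOC102549061, the uncharacterised gene, went from 1368 CPM in OS and 52.4 CPM in CH at 12 h to 12.5 ± 3.22 and 210.3 ± 39.7 CPM at 72 h, a change of the log2 difference of -8.65. The linker histone Hist1h1a went from 278 and 12.1 CPM to 2.79 ± 0.0908 and 28.8 ± 2.97 CPM (-7.39), Birc5 from 188 and 29.0 CPM to 1.37 ± 0.0324 and 52.7 ± 10.6 CPM (-7.14) and the core histone Hist1h2ak from 119 and 5.64 CPM to 2.54 ± 0.518 and 18.8 ± 3.79 CPM (-6.69). In each of the 4 OS lay above CH at 12 h and below it at 72 h. Histone genes have near-identical copies between which reads may be shared, so their single values are uncertain. Replication-dependent histone mRNA lacks a poly(A) tail, and the labels name removal of ribosomal RNA where the methods of the study name an mRNA kit, so how far it was captured is not known. Of 33 mitosis genes, 28 were higher in OS at 12 h and none at 72 h, when 14 were higher in CH and 19 were not called, and 28 shifted towards CH. Of 20 replication genes, a list without histones, 17 were higher in OS at 12 h and none at 72 h, when 5 were higher in CH and 15 were not called, and 19 shifted towards CH. These counts stand against the 12.9% of all genes tested that shifted towards CH. At 3 h neither list held a gene higher in OS, and 2 mitosis genes were higher in CH.

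The largest shifts towards OS were in genes that led the 72 h comparison. Among them Plpp3 (change of the log2 difference 6.28) stood at 93.4 CPM in OS and 139 CPM in CH at 12 h, Ace (6.20) at 1.21 and 5.65 CPM and Lpl (5.76) at 118 and 86.1 CPM. At 12 h Plpp3, Lpl and Aox1 were not called (log2 fold changes of -0.56, 0.45 and -0.32), whereas Dgat2 was called higher in CH (-1.03). At 72 h OS lay above and CH below the 0 h mean in all 4. Sox9, Dlx3 and Snai2 did not pass the test of change (changes of -0.23, 0.79 and 0.02).

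**Figure D5:**
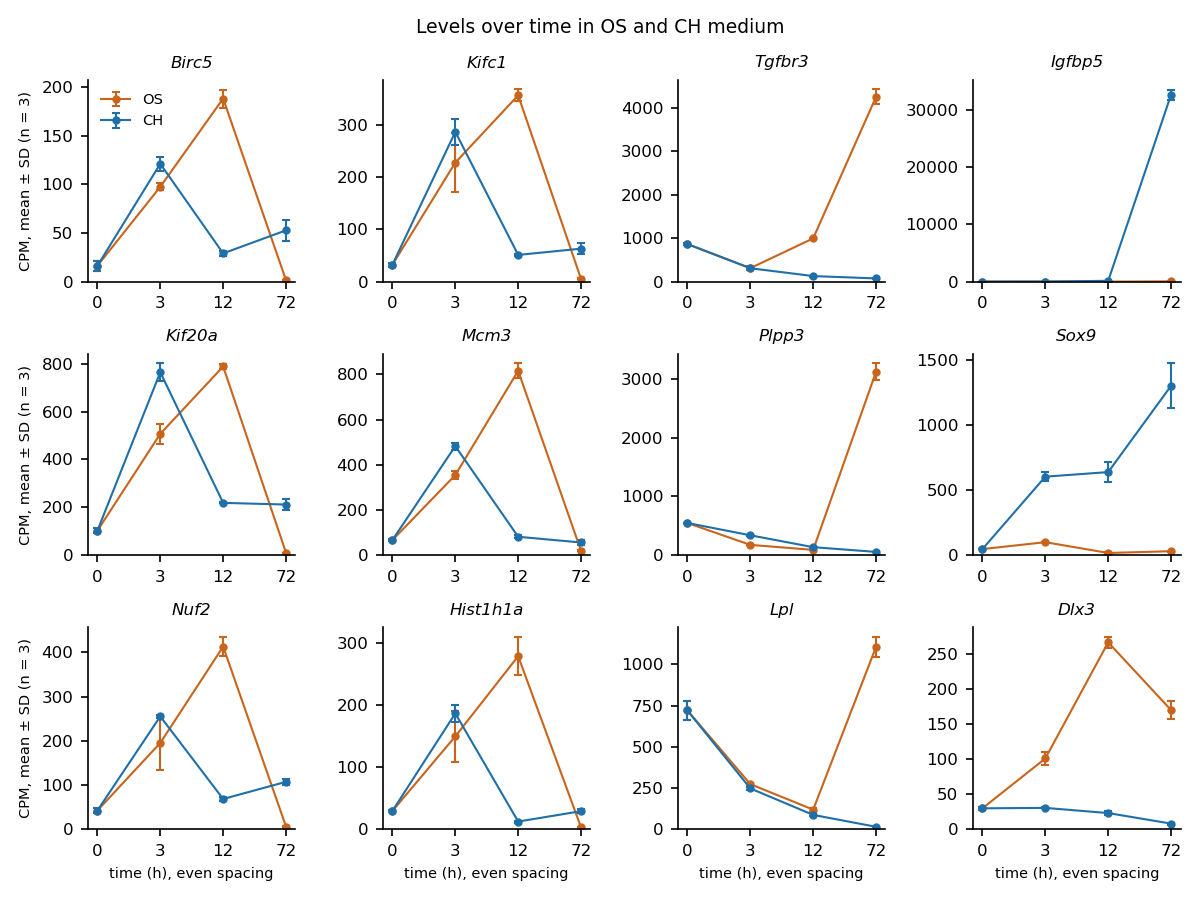
Mean CPM with SD (n = 3) at 0, 3, 12 and 72 h in OS (orange) and CH (blue) medium, times evenly spaced and 0 h shared. Birc5, Kif20a, Nuf2, Kifc1, Mcm3 and Hist1h1a have their highest mean at 12 h in OS and lie below CH there at 72 h. Tgfbr3, Plpp3, Lpl and Dlx3 are higher in OS at 72 h, and Igfbp5 and Sox9 in CH.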

How the data were processed

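RNA from 30 samples in 10 groups of 3 was sequenced, and the 6 samples of OS and CH at 72 h were compared here. The deposited values are CPM calculated by the authors, although the files are named as FPKM. The submitters' processing notes name Trimmomatic, HISAT2 and StringTie. Versions, the counting step and the genome build are not given in the sources used here. Every value was a whole multiple of the value of 1 read (100.0%, within 0.05 reads), from which the reads per gene and per sample were recovered. Each file held 10803 rows and 9999 gene names, and rows of the 729 names found on several rows were summed.

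The 4363 genes that reached 1 CPM in 3 or more samples entered the test. A gene could pass through 1 group of 3 samples alone, the group where it was high, which favours a call in that direction. limma (version 3.58.1, R 4.3.3) was fitted with a mean-variance trend to log2(CPM + 1) over all 30 samples in 10 groups, and p-values were adjusted by the Benjamini-Hochberg method over all genes tested. The difference between 12 and 72 h was tested as a contrast of that model. Because of the pseudocount of 1 CPM, fold changes understate the change of low genes. Ratios of reads have 95% exact intervals for counting error only, with a floor of 3 reads over a group at 0. Alternatives were another pseudocount, no filter, 3 other scalings, edgeR (version 4.0.16) on the recovered reads, the compared samples alone, thinned reads, rows kept apart, a replicate block and each sample left out, and, chosen after seeing the data, a higher abundance filter and a fit without the AD samples. On data simulated for the 72 h comparison over 4363 genes, limma recovered 179 of 200 changed genes, 79 of the 79 with at least 10 CPM, with 0 false calls among 4163. The changed genes were given changes well above the limit for a call, and the others equal means in OS and CH. The spread was fixed and no shift in scaling was simulated. These counts therefore do not measure how calls near the limit, or calls that depend on the scaling, would fare.

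The samples, gene lists and tests were chosen with earlier results of these data known. Named genes were the 12 with the largest fold change in each direction among those called, not overlapping and at 10 CPM or more in the higher group, a set of lineage genes whatever their result, up to 4 called genes per list, the 4 with the largest change between 12 and 72 h in each direction, and the 5 leading TFs in each direction. Some genes chosen by this rule are not reported here. Other genes, named to complete a list or as controls, were chosen after their values were seen. Replicate numbers did not pair the samples at 72 h: the correlation of same-numbered deviations between OS and CH was -0.052, -0.031 and -0.026. At 12 h it was 0.016, 0.066 and 0.024.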

Additional observations from a re-analysis of the deposited data

Results flagged for a closer look

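The OS minus CH difference at 72 h differed from that at 12 h for 91 of 129 named genes tested, by the limma contrast of the differences (adjusted p under 0.05 and a change of at least 1). Values are changes of the log2 difference, positive towards OS. Over all genes tested 22.5% passed, and many named genes were chosen for a large difference at 72 h, so nothing is read from their number. Among cell-cycle and histone genes and the uncharacterised LOC102549061, all shifted towards CH, the changes were LOC102549061 -8.65, Hist1h1a -7.39, Hist1h2ak -6.69, Birc5 -7.14, Nuf2 -6.65, Kifc1 -6.17, Kif20a -6.05, Gins1 -5.11, Cenpa -4.91, Cdt1 -4.87, Mcm3 -4.76 and Rpa3 -1.85. Among cartilage, tendon and bone genes, the changes were Comp -4.28, Col9a2 -3.42, Matn4 -2.10, Itga10 -3.01, Scx -1.44, Ibsp -3.55, Postn -2.11, Angptl7 -2.09, Smpd3 3.75, Bmp3 2.77 and Tnfrsf11b 1.60. Among other matrix and secreted genes, the changes were Lama1 -4.70, Tgfbi -3.02, Lrrc17 -2.83, Crispld2 -1.04, Col24a1 -2.74, Sdc1 -3.27, Gpc3 -1.16, Adam17 -1.61, Adamts4 2.39, Loxl3 1.48 and Lama5 1.55.

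Among signalling genes, the changes were Igfbp5 -3.85, Igfbp6 2.93, Pappa2 1.57, Tgfb1 -1.64, Tgfbr3 2.88, Fzd4 1.62, Wisp2 4.29, Gli1 -1.61, Pdgfrl -1.29, Pdgfc 2.47 and Maoa 1.25. Among receptors, transporters and other leading genes, the changes were Dclk3 -6.56, LOC102547056 -5.69, Megf10 -4.39, Slc1a1 -4.13, Htr2b -3.20, Ace 6.20, Ednra 2.68, Hpse 2.57, Kprp 4.08, Akr1cl 5.07 and Aox1 4.95. Among lipid and metabolic genes, the changes were Plpp3 6.28, Lpl 5.76, Dgat2 4.54, Cfd 2.57, Pparg 1.37, Fabp5 -2.27, Scd2 -1.67, Fdft1 -1.12, Ndufb4 -1.68, Egln3 -2.81 and Car9 -2.51. Among stress, interferon and cytokine genes, the changes were Chac1 -4.32, Atf4 -1.35, Sec61b -1.01, Ifi27 1.76, Gbp2 2.02, Irf5 1.37, Il1rl1 1.35 and Cxcl1 -1.90. Among contractile, contact and stromal genes, the changes were Cnn1 -2.27, Myh10 -2.34, Pdlim3 -1.49, Myocd 1.46, Gjb2 -1.90, Cldn15 3.82, S100a4 2.09, Ngfr -1.21 and Tek 1.80. Among genes of the TF list of the study, the changes were Rab24 -5.04, Bhlhe41 -1.41, Hopx -1.86, Nfia 2.04, Nr1d1 1.28, Gsc 1.83 and Meox2 2.29.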

How the results depend on the processing

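Of 2336 combinations of a gene chosen by the rule for named genes and an alternative, 2295 kept their direction and side of the threshold, 34 lost the call, 7 gained one and none changed direction, and 115 of 132 genes kept both under every alternative run. The number of DEGs at 72 h ranged from 833 to 1105 over the alternatives other than the abundance filter. Leaving out each sample in turn gave 848 to 886 DEGs at 72 h, 358 to 395 of them higher in OS and 480 to 505 higher in CH, 35 to 40 TFs, 694 to 709 DEGs at 12 h, 296 to 344 at 3 h and 910 to 986 genes for the change between 12 and 72 h. With the mean of at least 10 CPM, chosen after seeing the data, fewer genes were tested (1810) and the counts were 341 (145 and 196), 16 TFs, 367, 122 and 404. Without the AD samples, also chosen after seeing the data, they were 856 (372 and 484), 36, 703, 323 and 1022. With the replicate block the counts were 856 (373 and 483), 36, 695, 319 and 981, and it changed the call of no named gene. The split between directions at 72 h, 43.6% higher in OS, was 36.6% under median-ratio scaling and 51.0% with listed genes set to the same sum. At 12 h the share higher in OS was 55.6%, and 42.1% in edgeR. At 3 h it was 30.7%, and 43.3% under quantile normalization. For the change between 12 and 72 h it was 42.6%, and 57.5% with listed genes set to the same sum. The cause was not tested. Fewer than 3 reads per sample, worth up to 0.769 CPM in CH, limit what can be said of genes near 0.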
